A study of Rattus norvegicus with 8 samples.

Results

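Liver levels of 10 genes were described that mark Kupffer cells, the resident macrophages of the liver, and other macrophages: the resident markers Clec4f, Marco and Cd163, the general macrophage genes Cd68, Csf1r, Cd14 and C1qa, the lipid-associated markers Trem2 and Gpnmb, and the monocyte marker Ccr2. They were chosen by symbol, with every non-control probe whose gene name in the scanner files was that symbol, which gave 10 genes with 11 probes on 28 spots of an array that carries 30367 probes and 19769 named genes. Of the 10 genes, 9 were tested, and Ccr2 was too dim on too many arrays. The furan group was 4 male Fisher 344 rats aged 18 weeks gavaged 5 times weekly for 90 days with furan, a liver carcinogen of rodents, at a daily dose of 8 mg per kg body weight, and the livers were taken 24 hours after treatment ended. The control group was 4 male rats of the same strain and age, with the vehicle not given in the sources used here. Total RNA of each whole liver sample was hybridised to 1 Agilent rat array in 1 colour (Cy3), and no sample was sorted for macrophages. Marker genes of hepatocytes, the main cells of the liver, were measurable, with 7 of 7 tested.

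Kupffer cells line the liver sinusoids, where they take up bacteria, dying cells, haemoglobin complexes and lipoproteins from the blood through scavenger receptors and lectins. They depend on signalling through the receptor Csf1r. After injury, monocytes can enter the liver through the chemokine receptor Ccr2 and become macrophages, and macrophages that take up much lipid or cell debris are known in mouse and human liver for Trem2 and Gpnmb. In bulk liver RNA, fewer cells of a type and less RNA per cell cannot be told apart.

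The values below rest on single probes, and those of the compared resident and lipid-associated markers are given here because each level is the signal of this one sequence. Positions come from the array annotation (rn4 build): chr4:117839920-117839979 for Clec4f, chromosome Un from 9449917 to 9450079 for Marco, chr4:160423704-160423763 for Cd163, chr9:8059065-8059124 for Trem2 and chr4:77182198-77182257 for Gpnmb. The probes have 60 bases. The Marco and Cd163 probes are given whole, and the other 3 by their first 30 bases. All letters are in lower case and read 5′ to 3′, and whether a probe lies in coding sequence or in a UTR was not determined here.
Clec4f: ttgtctcgccatttaaaacatgcttgcctc
Marco: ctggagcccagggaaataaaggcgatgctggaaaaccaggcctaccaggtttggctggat
Cd163: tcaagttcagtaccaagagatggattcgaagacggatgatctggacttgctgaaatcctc
Trem2: gagcaggaatactggtgtgctgcatctgcg
Gpnmb: gtgagctgtgcagaagtacatgactggtag

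Levels are log2 values of the scanner software's background-subtracted signal minus that of the array's 75th percentile, so 0 is the brightness of the 75th percentile spot and 1 unit is a doubling. A gene was called changed at a Benjamini-Hochberg adjusted p below 0.05 from limma's moderated test, adjusted over all 17683 tested features, and every adjusted p of a gene below is of this kind. The 75th percentile signal was 1256 to 1596 intensity units on the furan arrays and 827 to 1057 on the control arrays, and 73.2% to 78.5% and 70.9% to 74.8% of spots were well above background. Arrays 1 and 2 of each group were on slide 1 and arrays 3 and 4 of each group on slide 2. The spread between replicate spots was out of the scanner software's range on furan 1 (median coefficient of variation 12.8%) and control 2 (9.38%), and for Trem2, Gpnmb and the calls and list counts below that differ without both arrays, the value without them is given. The number of arrays limits the precision.

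Of the 9 tested genes, Trem2 was called higher in furan livers, and none was called lower. Across the array 34.2% of features were called, 17.3% higher and 16.9% lower, so 1 call in 9 genes is no larger a share than the background. The change was below 0 for 6 of the 9 genes and above 0 for 3, and the median change of all tested features was -0.03. At an unadjusted p below 0.05 limma also had Gpnmb as higher and Cd14 as lower. Cd14 was the 1 gene of the 9 whose furan values did not overlap the control values, while 36.7% of all features did not overlap, 18.0% with furan below control.

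**Figure D1:**
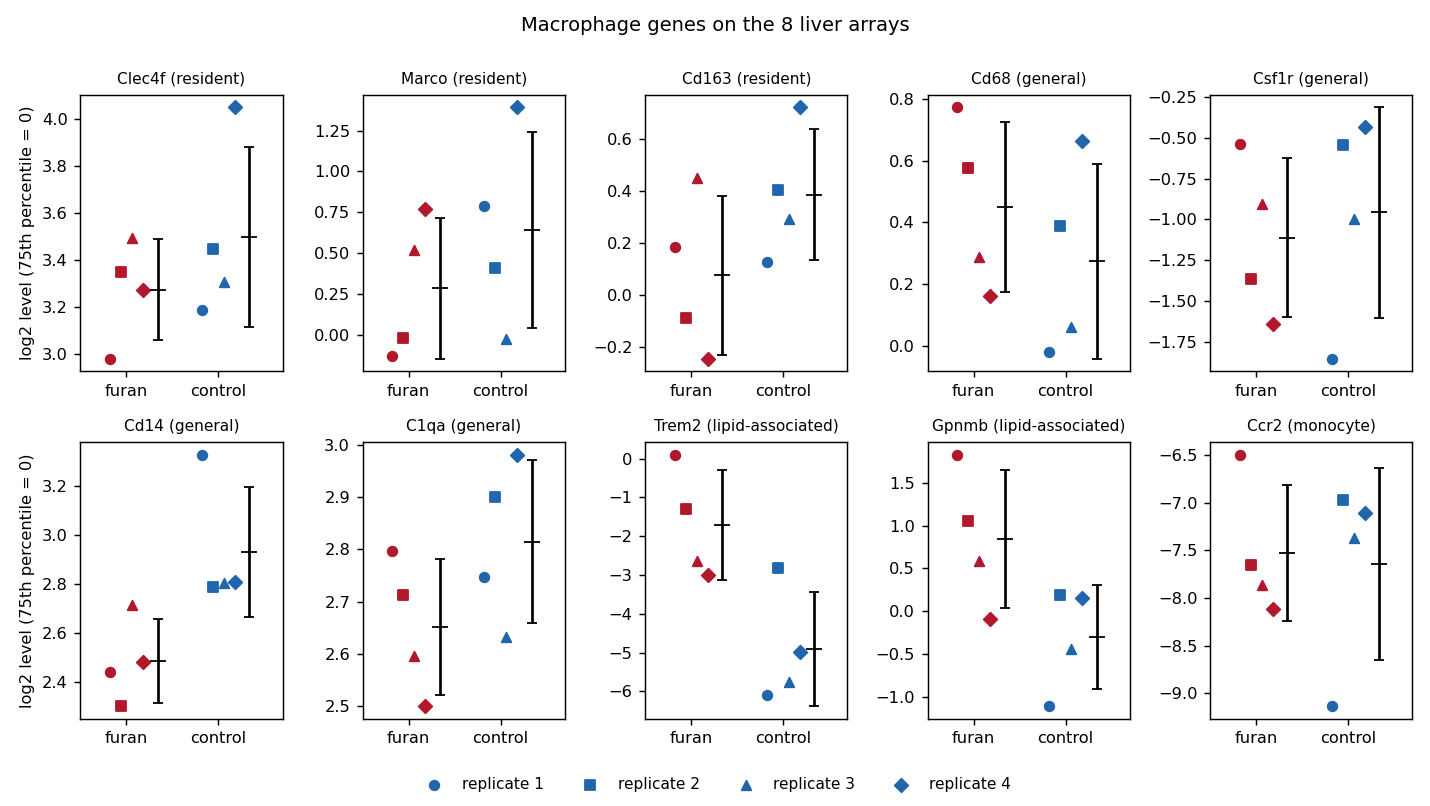
Log2 level (array 75th percentile at 0) of each of the 10 genes on the 4 furan arrays (red, left) and the 4 control arrays (blue, right), each panel with its own axis. Symbols mark the replicate number, and the bar gives the mean ± SD (n = 4 each). Trem2 spans 0.10 to -3.00 in furan livers and -2.81 to -6.08 in control livers, and Ccr2 is shown although it was not tested.

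Clec4f encodes a galactose-binding C-type lectin that is specific to Kupffer cells in rodents. Its level was 2.98, 3.35, 3.49 and 3.27 in furan livers 1 to 4, against 3.19, 3.44, 3.30 and 4.05 in control livers 1 to 4. The groups overlapped, and control 4 was the highest array. The change was -0.22 ± 0.20 (SE, n = 4 each; 95% interval -0.69 to 0.24; adjusted p = 0.425). Clec4f had more spots than the other genes, with 8 to 10 usable on each array, and their log2 SD within an array was 0.045 to 0.13, below the SD of 0.22 among furan animals and of 0.38 among control animals.

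Marco, a collagen-containing scavenger receptor for bacteria, had levels of -0.13, -0.02, 0.52 and 0.77 in furan livers, against 0.79, 0.41, -0.03 and 1.39 in control livers. The groups overlapped over most of their range, and control 4 was again the highest. The change was -0.36 ± 0.32 (95% interval -1.09 to 0.38; adjusted p = 0.425). Cd163, the scavenger receptor for haptoglobin bound to haemoglobin, had 0.19, -0.09, 0.45 and -0.24 in furan livers, against 0.13, 0.40, 0.29 and 0.72 in control livers. Furan 3 lay above 3 of the 4 controls, and furan 2 and furan 4 lay below all of them. The change of Cd163 was -0.31 ± 0.19 (95% interval -0.74 to 0.12; adjusted p = 0.229). All 3 resident markers thus had estimates below 0, none passed the test, and each interval includes 0. Without control 4 the change of Clec4f was -0.04, of Marco -0.11 and of Cd163 -0.20.

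Of 15 other genes known from resident Kupffer cells, 15 were tested. Limma called 0 higher and 2 lower, beside 17.3% and 16.9% of all features. At an unadjusted p below 0.05, 1 was higher and 3 were lower. The median change was -0.17, with 12 of the 15 below 0, and it ran from -0.36 without control 1 to -0.06 without control 4. Siglec1, a sialic acid-binding adhesion receptor of tissue macrophages, fell by 0.60 (adjusted p = 0.0093), to -1.72, -1.87, -1.66 and -2.01 in furan livers, against -1.29, -1.18, -1.41 and -0.98 in control livers. All 4 furan values lay below all 4 control values, and the call was kept without each array in turn. Il18bp, a secreted inhibitor of interleukin-18, fell by 0.44 (adjusted p = 0.038), a call lost without control 3 (adjusted p = 0.092), control 4 (0.084), furan 2 (0.095), furan 3 (0.060) or furan 4 (0.073). Vsig4, a complement receptor, changed by -0.17 ± 0.31 (adjusted p = 0.706). Timd4, a receptor for phosphatidylserine on dying cells, changed by -0.14 ± 0.19 (0.598), and Cd5l, a secreted scavenger receptor protein, by -0.31 ± 0.20 (0.248). The counts of genes called lower ran from 1 to 4 when single arrays were left out, with 4 without control 1. Normexp background correction gave 1 gene called higher, and so did leaving out furan 3. All furan values lay above all control values for 1 of the 15 genes and below for 3, beside 18.8% and 18.0% of all features.

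Among the general macrophage genes, Cd14, a co-receptor for bacterial lipopolysaccharide, had the smallest adjusted p. Its level was 2.44, 2.30, 2.71 and 2.48 in furan livers, against 3.33, 2.79, 2.80 and 2.81 in control livers. Every furan value was below every control value, with furan 3 closest to them and control 1 far above the other controls. The change was -0.45 ± 0.16 (95% interval -0.80 to -0.09; adjusted p = 0.056), which missed the threshold. It passed with normexp background correction (adjusted p = 0.040), with an intensity trend in the variance (0.037) and without furan 3 (0.048), and over all alternatives the adjusted p ran from 0.037 to 0.424. Without control 1 the change was -0.31.

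Cd68, a lysosomal membrane glycoprotein of phagocytes, had 0.77, 0.58, 0.29 and 0.16 in furan livers, against -0.02, 0.39, 0.06 and 0.66 in control livers, and the groups overlapped. The change was 0.18 ± 0.20 (95% interval -0.27 to 0.62; adjusted p = 0.516), with 0.49 on slide 1 and -0.14 on slide 2. C1qa, a chain of the complement component C1q that liver macrophages secrete, had 2.80, 2.71, 2.60 and 2.50 in furan livers, against 2.75, 2.90, 2.63 and 2.98 in control livers, which also overlapped. Its change was -0.16 ± 0.12 (95% interval -0.43 to 0.11; adjusted p = 0.318).

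Csf1r, the receptor for the growth factors Csf1 and Il34, had 2 probes. The brighter gave -0.54, -1.36, -0.91 and -1.64 in furan livers, against -1.85, -0.55, -1.0 and -0.43 in control livers, so that the controls spanned the whole range of the furan arrays. The change was -0.15 ± 0.35 (95% interval -0.96 to 0.65; adjusted p = 0.765), with 0.25 on slide 1 and -0.55 on slide 2. The other probe, with 1 spot, changed by -0.04 ± 0.44. On both probes control 1 was the lowest of the 8 arrays.

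Of 28 further genes of macrophages in general, 27 were tested. Of these 0 were called higher and 2 lower, beside 17.3% and 16.9% of all features. The median change was -0.05, which ran from -0.24 without control 1 to 0.09 without furan 4. At an unadjusted p below 0.05 limma had 0 higher and 4 lower, and with normexp background correction 0 were called higher and 4 lower. Mpeg1, a pore-forming protein of phagocytes, fell by 1.61 (SE 0.16, adjusted p = 6.3e-04), with -4.21, -4.45, -3.90 and -4.40 in furan livers, against -2.53, -2.90, -2.72 and -2.39 in control livers. All 4 furan livers were lower by more than the spread within either group, and the call was kept without each array in turn. Itgam, the integrin chain CD11b, fell by 0.56 (adjusted p = 0.034), but the mean of its probes gave -0.23 (adjusted p = 0.585), and the call was lost without control 1, control 2, control 4, furan 2 or furan 3, at adjusted p 0.071 to 0.087, and without both furan 1 and control 2 (0.052). Adgre1, the F4/80 antigen, changed by -0.31 ± 0.15 (adjusted p = 0.150) and Aif1, a calcium-binding protein of macrophages, by -0.13 ± 0.17 (0.609). The C1q chains C1qb and C1qc changed by 0.09 ± 0.17 (0.730) and -0.05 ± 0.22 (0.878), and Lyz2, lysozyme, by 0.10 ± 0.26 (0.804).

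Trem2 encodes a surface receptor for lipids and lipoproteins that signals through the adaptor Tyrobp. Its level was 0.10, -1.30, -2.63 and -3.00 in furan livers 1 to 4, against -6.08, -2.81, -5.75 and -4.98 in control livers 1 to 4. Control 2 lay above furan 4 and below the other furan livers, so the groups overlapped by this 1 pair. In intensity units the single Trem2 spot read 1597, 649.2, 234.9 and 156.8 on the furan arrays, against 12.21, 138.6, 19.69 and 31.13 on the control arrays, and it was well above background on all 8. These readings are not scaled to the 75th percentile, which was higher on every furan array than on any control array.

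The Trem2 mean was -1.71 ± 1.41 in furan livers and -4.91 ± 1.47 in control livers (SD, n = 4 each). The change was 3.20 ± 0.87 on the log2 scale, or 9.18-fold with a 95% interval of 2.33-fold to 36.2-fold (adjusted p = 0.023), larger than 99.6% of the changes of all tested features. The change was 3.85 on slide 1 and 2.55 on slide 2. Leaving out furan 2 (adjusted p = 0.064), control 1 (0.055), control 3 (0.060) or control 4 (0.052) ended the call, as did taking slide 1 alone (0.133), while the change stayed between 2.60 and 3.90 when single arrays were left out. Without furan 1 and control 2, the arrays out of the quality range, it was 3.29 (adjusted p = 0.0082). With normexp background correction it was 1.98 (adjusted p = 0.018), more than 1.5 times smaller.

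Gpnmb, a transmembrane glycoprotein of lysosome-rich macrophages, had levels of 1.83, 1.05, 0.59 and -0.09 in furan livers, against -1.11, 0.18, -0.44 and 0.15 in control livers. Furan 4 lay below control 2 and control 4, and the other furan livers lay above all controls. Its probe, with 2 spots, read 5285, 3307, 2191 and 1182 intensity units on the furan arrays and 383.2, 1107, 779.8 and 1089 on the control arrays. The change was 1.15 ± 0.43, or 2.22-fold with a 95% interval of 1.11-fold to 4.42-fold, and it missed the threshold (adjusted p = 0.072). It was 1.90 on slide 1 and 0.40 on slide 2. It passed with normexp background correction (adjusted p = 0.034) and without furan 4 (0.031), and without furan 1 and control 2 it was 0.98 (0.107). Over all alternatives its adjusted p ran from 0.031 to 0.421.

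**Figure D2:**
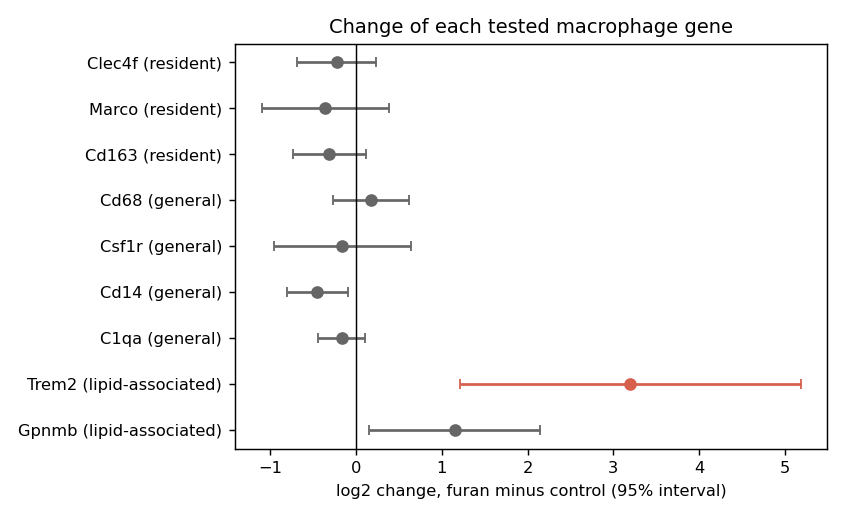
Log2 change, furan minus control, of the 9 tested genes with its 95% interval from limma (n = 4 each), from the resident markers at the top to the lipid-associated markers at the bottom. Trem2, in red, at 3.20 is the called gene, and the resident markers lie between -0.36 and -0.22.

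The stretches upstream of the start of Trem2 and Gpnmb are shown because these 2 genes had the largest changes of the 9. Each has 250 bases ending just before the annotated start, on the gene's own strand, from RefSeq on the GRCr8 build: chr9:20151780-20152029 on the minus strand for Trem2 and chr4:79340878-79341127 on the plus strand for Gpnmb. Capitals mark matches, on either strand, to GAGGAAG (a core recognised by PU.1 and other ETS factors), CATGTG (the M-box core of the MITF family), CACGTG (an E-box) or TGAGTCA (AP-1).
Trem2: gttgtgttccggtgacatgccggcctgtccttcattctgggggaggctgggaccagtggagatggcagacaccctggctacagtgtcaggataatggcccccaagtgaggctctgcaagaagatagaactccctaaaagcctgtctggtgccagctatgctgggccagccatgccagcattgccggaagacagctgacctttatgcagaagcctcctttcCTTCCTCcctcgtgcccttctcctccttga
Gpnmb: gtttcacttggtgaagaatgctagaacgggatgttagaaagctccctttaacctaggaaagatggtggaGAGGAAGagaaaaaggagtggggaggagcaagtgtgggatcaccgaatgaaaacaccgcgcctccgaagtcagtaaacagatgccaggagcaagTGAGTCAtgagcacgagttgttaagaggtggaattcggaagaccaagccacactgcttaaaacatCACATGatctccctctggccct
GAGGAAG was found upstream of Trem2, Gpnmb, Marco, Csf1r and Cd14, which is 5 of the 10 genes, and in 10.2% of all 33469 RefSeq rat promoter windows of this length. CATGTG was found upstream of Gpnmb, Cd68 and C1qa (3 genes, 12.1% of windows), TGAGTCA upstream of Gpnmb and Cd68 (2 genes, 4.05%), and CACGTG upstream of 0 of the 10 (5.59%). None of the 4 motifs overlaps another in the windows shown. These are matches of letters in a window and were not measured as binding sites.

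Of 20 other genes known from lipid-associated macrophages, 19 were tested. Of these 2 were called higher and 2 lower, beside 17.3% and 16.9% of all features. The median change was 0.36, with 15 of the 19 above 0. At an unadjusted p below 0.05 limma had 3 higher and 3 lower. With normexp background correction 3 were called higher and 3 lower, and the median was 0.12. Mmp12, the macrophage metalloelastase, rose by 3.33 (SE 0.75, adjusted p = 0.011), with -0.48, -0.84, -2.27 and -2.92 in furan livers, against -6.47, -3.38, -5.53 and -4.44 in control livers. The groups did not overlap, with furan 4 and control 2 closest to each other. Fabp5, a fatty acid-binding protein, rose by 1.82 (SE 0.33, adjusted p = 0.0044), with 3.78, 3.19, 2.51 and 3.19 in furan livers, against 0.62, 1.59, 1.86 and 1.32 in control livers. Both calls were kept without each array in turn, and Mmp12 was 2.03 with normexp background correction.

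The 2 genes of this list called lower were Apoe and Cd36. Which cells gave the signal of these 2 genes, or of Mmp12 and Fabp5, was not tested. Apoe, an apolipoprotein that hepatocytes also secrete, fell by 0.62 (adjusted p = 0.0061), with the opposite sign under quantile normalization (0.06, adjusted p = 0.567). Cd36, a fatty acid transporter, fell by 0.72 (adjusted p = 0.041), a call lost when any array but control 2 was left out, at adjusted p 0.053 to 0.101. Spp1, osteopontin, which bile duct cells also make, had 1.03, -1.28, -3.85 and -3.98 in furan livers, against -6.58, 0.85, -8.62 and -3.71 in control livers, and its change of 2.49 ± 2.01 was not called (adjusted p = 0.368). Control 2 was nearly as high as furan 1, the highest array. Lgals3, galectin-3, changed by 0.79 ± 0.42 (adjusted p = 0.172) and the tetraspanin Cd9 by 0.42 ± 0.64 (0.648). Without control 1 the median of the list was 0.01 and 3 genes were called higher and 1 lower. The median was 0.13 without furan 1 and 0.17 without furan 2.

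**Figure D3:**
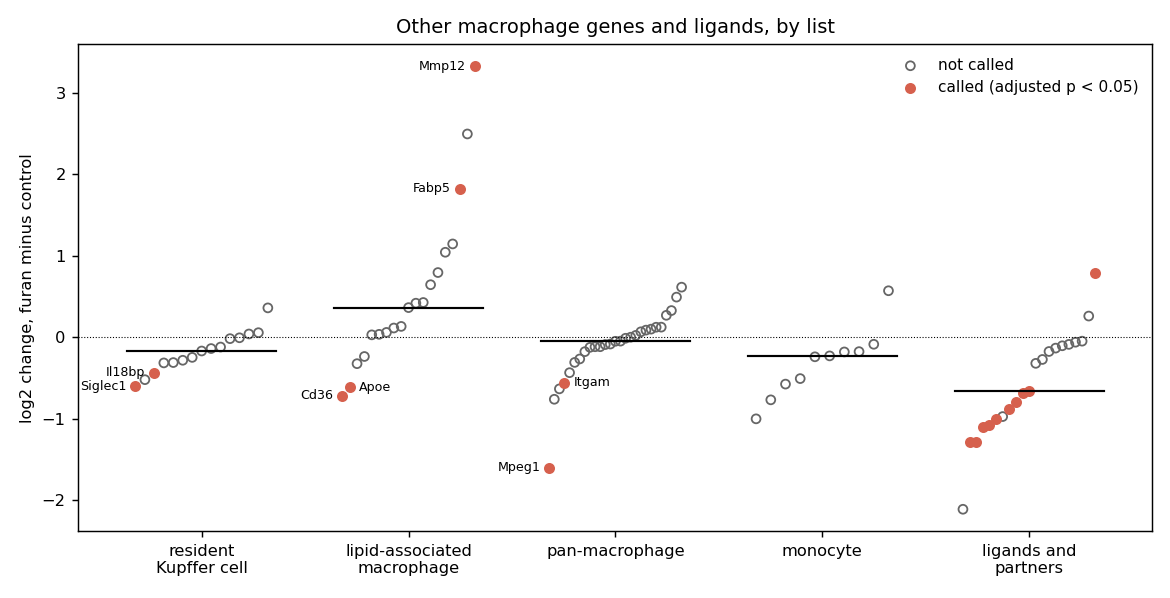
Log2 change, furan minus control, of each tested gene of 5 lists that leave out the 10 described genes. Filled red points were called, open points were not, lines give the median of each list, and names are given for called genes of the macrophage and monocyte lists. The lipid-associated list reaches 3.33 (Mmp12), the general list reaches down to -1.61 (Mpeg1), and the ligands and partners have a median of -0.66, which is -0.24 without control 2.

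To set the resident and lipid-associated markers side by side on each array, each gene's deviation from its control mean was averaged within the class. The lipid-associated mean was 3.57, 2.48, 1.58 and 1.06 on furan arrays 1 to 4, against -0.99, 1.29, -0.49 and 0.19 on control arrays 1 to 4. The resident mean was -0.50, -0.43, -0.02 and -0.24 on the furan arrays, against -0.14, -0.09, -0.32 and 0.55 on the control arrays. The lipid-associated mean exceeded the resident mean by 4.07, 2.91, 1.60 and 1.30 in furan livers, against -0.85, 1.38, -0.17 and -0.36 in control livers. Control 2 lay above furan 4 in this difference. Its mean over furan livers exceeded that over control livers by 2.47 (SD 1.27 in furan and 0.96 in control livers), with 1.94 to 2.93 when single arrays were left out. This is a description, given with no test because the genes were chosen with results of these arrays known.

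**Figure D4:**
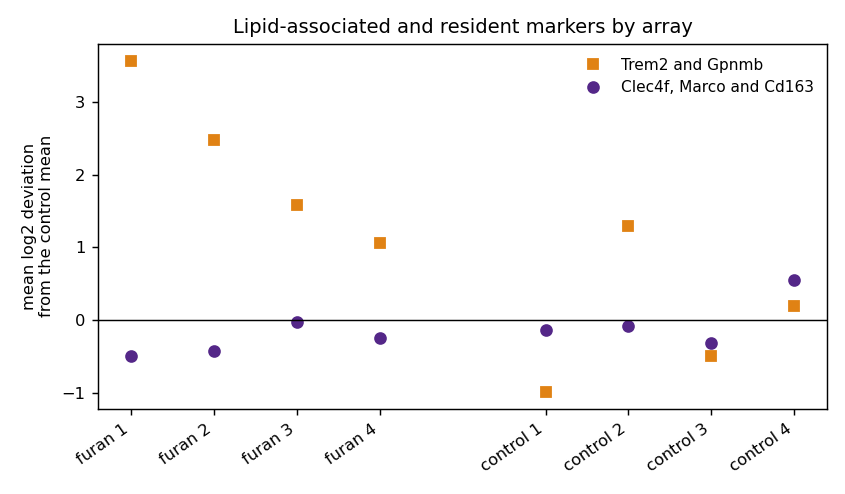
Mean log2 deviation from the control mean of Trem2 and Gpnmb (orange squares) and of Clec4f, Marco and Cd163 (purple circles) on each array, furan left of control. On the 4 furan arrays the squares lie at 1.06 to 3.57 and the circles at -0.50 to -0.02, and control 2 has the highest square of the controls at 1.29.

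Whether 2 genes changed unequally was tested for the 6 pairs of a lipid-associated and a resident marker, by a two-sided exact permutation test of the difference between both genes' levels on each array (70 relabellings, smallest possible p 0.0286). The change of Trem2 exceeded that of Clec4f by 3.42 (exact p = 0.057), that of Marco by 3.55 (exact p = 0.057) and that of Cd163 by 3.51 (exact p = 0.0286). The change of Gpnmb exceeded that of Clec4f by 1.37 (exact p = 0.057), that of Marco by 1.51 (exact p = 0.114) and that of Cd163 by 1.46 (exact p = 0.0286). The furan and control differences did not overlap for the pairs of Trem2 and of Gpnmb with Cd163. The genes of the pairs were chosen with results of these arrays known, so these p-values are not independent evidence of a difference between the classes. After Benjamini-Hochberg adjustment over the 6 pairs, 0 passed, with an adjusted exact p of 0.069 for 5 pairs and 0.114 for Gpnmb and Marco. With 70 relabellings no pair could pass this adjustment unless at least 4 of the 6 had the smallest possible p. With quantile normalization 4 of the 6 passed, at an adjusted exact permutation p of 0.043.

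Markers of other cell types moved with Trem2 and Gpnmb on some arrays. Of 7 genes of bile duct cells, 6 were tested and 2 were called higher, beside 17.3% of all features. They were the adhesion protein Epcam, by 1.79 (adjusted p = 0.0074), and the transcription factor Sox9, by 0.48 (0.021). The call of Sox9 was lost without control 1 (0.054), without control 2 (0.052) and without both furan 1 and control 2 (0.075). It was also lost with no filter on dim probes (0.051), with normexp background correction (0.215) and with the replicate number as a block (0.072). Each slide alone lost it too (0.116 and 0.298). Without control 2, and without both furan 1 and control 2, 2 of the 6 genes were still called higher, so another gene than Sox9 was called there. The summed level of the 6, in units of the 75th percentile signal, was 5.93, 2.51, 1.37 and 1.15 in furan livers, against 0.608, 3.34, 0.987 and 0.645 in control livers. Furan 1 and control 2, the highest array of each group in this sum, were also the highest in Trem2, in Gpnmb and in the spread between replicate spots. Both were likewise the highest of their group in the sums of the stellate cell, monocyte, dendritic cell and lymphocyte genes, but not in those of the other lists. The median intensity of the deposited series table, with each array's 75th percentile at 1000, was 124.8 on furan 1 and 114.7 on control 2. It was 91.5 to 104.5 on the other arrays, so the pattern is not particular to bile duct genes. The summed level of 8 tested genes of stellate cells, 0 of them called, with 0 at an unadjusted p below 0.05 and 0 called with normexp background correction, was 15.7, 9.20, 6.31 and 5.12 in furan livers, against 3.73, 9.40, 7.47 and 4.90 in control livers. Without both furan 1 and control 2, 1 of the stellate cell genes was called lower. The smallest p of that list was that of Lrat, which esterifies retinol, with a change of 0.59 ± 0.28 (adjusted p = 0.136). The part of these cells in the levels of Trem2 and Gpnmb was not tested.

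Ccr2, the receptor for the monocyte chemoattractant Ccl2, was well above background on 2 of 4 furan arrays and 2 of 4 control arrays. Its level was -6.50, -7.65, -7.86 and -8.11 in furan livers, against -9.13, -6.97, -7.36 and -7.11 in control livers. The groups overlapped, and a fold change is not given at this signal. Of 13 other genes of monocytes, 10 were tested and 0 were called by limma, with 0 higher and 1 lower at an unadjusted p below 0.05 and 1 called lower with normexp background correction. Their median change was -0.24, which ran from -0.46 without furan 1 to -0.06 without furan 4. Without furan 1, 2 of the 10 were called lower, and without both arrays out of the quality range 3 were.

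All of 21 genes listed as ligands, adaptors or partners of the 10 genes were tested. Of these 1 was called higher and 9 lower, beside 17.3% and 16.9% of all features. Hpx, 1 of the 9, binds haem and is not itself a ligand or partner of the 10 genes. The list also holds downstream signalling proteins (Syk, Plcg2, Myd88, Irak4) and transcription factors (Mitf, Tfeb, Tfe3), so its name is a loose one. The median change was -0.66, and 19 of the 21 changes were below 0, with a median of -0.24 without control 2 and of -0.70 to -0.57 without any other single array. Csf1, the growth factor that binds Csf1r, fell by 0.79 (adjusted p = 0.035), with -1.35, -1.70, -1.85 and -2.51 in furan livers, against -1.15, -0.75, -1.30 and -1.04 in control livers. The groups did not overlap, with furan 1 and control 3 closest, and the call was lost without control 1 (adjusted p = 0.060), control 2 (0.084), control 4 (0.075), furan 2 (0.065) or furan 3 (0.069). Il34, the other ligand of Csf1r, changed by -0.09 ± 0.12 (adjusted p = 0.589). Ccl2, the ligand of Ccr2, changed by -0.98 ± 0.92 (0.445), and its highest array was control 2.

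On the side of Cd14, Lbp, the plasma protein that hands lipopolysaccharide to Cd14, fell by 1.29 (adjusted p = 0.0077), with 1.40, 0.82, 1.15 and 0.73 in furan livers, against 2.99, 2.05, 1.81 and 2.43 in control livers. Ly96 (MD-2), which binds lipopolysaccharide beside Tlr4, rose by 0.79 (adjusted p = 0.011), with -2.54, -2.56, -2.74 and -2.61 in furan livers, against -3.88, -3.07, -3.45 and -3.20 in control livers. Neither gene's groups overlapped, and both calls were kept without each array in turn, with a change of Ly96 of 0.43 under normexp background correction. Tlr4, the signalling receptor, changed by -0.32 ± 0.20 (adjusted p = 0.246). On the side of C1qa, C1s, the protease of the C1 complex, fell by 1.29 (adjusted p = 0.015) and Serping1, the inhibitor of that complex, by 1.08 (0.0054). Hpx, the plasma protein that binds haem, is on neither side and fell by 1.10 (adjusted p = 0.0040), with -0.55 (0.048) under quantile normalization. Tyrobp, the adaptor of Trem2, changed by 0.12 ± 0.19 (adjusted p = 0.649), with 1.88, 1.99, 1.40 and 1.42 in furan livers, against 1.39, 1.65, 1.31 and 1.86 in control livers. Lbp, C1s, Serping1 and Hpx are made by hepatocytes, so the list of partners is not one of macrophage genes alone. Of 7 hepatocyte genes, 4 were called lower and 0 higher by limma, beside 16.9% and 17.3% of all features. At an unadjusted p below 0.05, 0 were higher, and 0 were called higher with normexp background correction. The summed level of the 7 was 656 to 867 in furan livers, against 1081 to 1234 in control livers. The 4 were the apolipoprotein Apob, which fell by 0.88, the plasma carrier Ttr by 0.71, the protease inhibitor Serpina1 by 0.68 and the urea cycle enzyme Cps1 by 0.61, at adjusted p 0.0064 to 0.048. Under quantile normalization the change of Ttr was 0.01 (adjusted p = 0.950) and that of Serpina1 0.03 (0.831), both of opposite sign. Cps1 was not called there (0.083). The summed level weighs bright genes most, with control means of 8.55 for Ttr and 8.27 for Serpina1 against 3.22 for Cps1. It was not computed under quantile normalization. The call of Cps1 was also lost without any single array but furan 3 and without both furan 1 and control 2 (0.100). The part of hepatocyte RNA in these falls was not tested.

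Markers of further cell types that could share these genes were mostly uncalled. Of the neutrophil genes 4 of 10 were tested and 2 were called lower, beside 16.9% of all features. S100a9 fell by 1.65 (adjusted p = 0.041) and Csf3r by 1.06 (0.034). Both calls were lost without any of several single arrays, among them control 1, control 4, furan 2 and furan 3. Without both furan 1 and control 2, 3 of the 4 were called lower. The summed level was 0.219 to 0.398 in furan livers, against 0.445 to 1.30 in control livers. Of the dendritic cell genes 5 of 9 were tested, of the lymphocyte genes 9 of 13 and of the sinusoidal endothelial genes 9 of 10, and 0 of each were called by limma, with 0, 0 and 1 at an unadjusted p below 0.05 (the 1 lower) and 2, 4 and 3 called lower with normexp background correction. The smallest p-values were those of Batf3 among the dendritic cell genes (-0.35 ± 0.34, adjusted p = 0.451), Cd5 among the lymphocyte genes (-0.53 ± 0.30, 0.204) and Cdh5 among the endothelial genes (-0.40 ± 0.16, 0.081). The summed endothelial level was 14.9 to 18.3 in furan livers, against 6.64 in control 1 and 25.0 to 30.3 in the other controls, and 6 of the 9 genes were called lower without control 1. Of the lymphocyte genes 3 were called lower without control 1 and 1 without furan 1. The summed level was 0.204 to 0.477 in furan and 0.171 to 0.634 in control livers for dendritic cell genes, and 0.470 to 0.931 in furan and 0.362 to 0.791 in control livers for lymphocyte genes. Untested for dimness were Xcr1, Ccr7, Itgae and Siglech of dendritic cells and Cd3e, Cd2, Cd79a and Ms4a1 of lymphocytes.

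The named genes whose levels followed each of the 9 genes most closely over the 8 arrays were found by Pearson's r of log2 levels. This is a description of the highest values among 13977 named features, and it includes the difference between the groups. For Trem2 they were Galnt12 (r = 0.992), Ccl28 (0.986) and Kctd14 (0.982), with changes of 2.04, 2.66 and 1.56. For Gpnmb they were Laptm4b (0.990), LOC690045 (0.988) and Spire1 (0.986), with changes of 0.47, 0.91 and 0.93. For the resident markers the closest were Blk (0.940) for Clec4f, Ankrd65 (0.955) for Marco and Ticam1 (0.988) for Cd163, and for the general genes Fcer1g (0.971) for Cd68, Slc11a1 (0.976) for Csf1r, Pbrm1 (0.984) for Cd14 and Slc1a4 (0.967) for C1qa. Cfp, which is in the resident Kupffer cell list, was the second for Clec4f (0.929). The genes closest to the resident markers changed by -0.36 to -0.25.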

How the data were processed

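RNA of 8 rat livers was measured on 1-colour arrays, with 1 array per animal. Per the labels and the submitters' processing notes, Agilent Feature Extraction 10.7 was used by the authors to read the spots. Each spot in the deposited scanner files has a background-subtracted intensity in arbitrary units. The intensity values of the deposited series table equalled these after scaling each array's 75th percentile to 1000. Here log2 intensity minus that percentile was used. Spots marked non-uniform or outlying were left out, spots of a probe averaged, and the brightest probe of a gene kept. Testing required that 1 group or both had the probe well above background throughout. Groups were compared with limma 3.58.1 (lmFit, eBayes; R 4.3.3), two-sided, and p-values of 17683 features (13977 named) were adjusted by Benjamini-Hochberg. The fit was tested on simulated data in which 200 of the 17683 features were changed. It called 64 of 100 features changed by 1 log2 unit and 87 of 100 changed by 2, with 9 false calls. That is a far smaller changed share than the 34.2% called in the real data, so these rates are not those of the real fit. A gene that was not called may still have changed. Gene names came from the array's transcript identifiers through a reference gene table where matched.

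Alternatives were normexp background correction (offset 50), quantile normalization, the series table, other filters on dim probes, the mean of a gene's probes, an intensity trend, slide and replicate number as blocks, each slide alone, and arrays left out. List counts without arrays and under normexp were added after seeing the data. Named were all 10 genes, up to 4 called genes per list and direction (where none was called, that with the smallest p), a set of 19 partner and marker genes, and the 3 genes most like each of the 9, of which the first is printed for genes other than Trem2 and Gpnmb, with the second for Clec4f. The genes, lists and tests were chosen with earlier results of these data known. Single genes of the monocyte list are not reported here.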

Additional observations from a re-analysis of the deposited data

Results flagged for a closer look

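In 2 of the 104 groups of 4 arrays examined (52 genes in both groups), 1 array lay far from the other 3 by Dixon's criterion, and chance alone gives about 5% of groups. C1qb was 3.54 on furan 2, against 3.28 to 3.32 on the other furan arrays. Cd14 was 3.33 on control 1, against 2.79 to 2.81 on the other control arrays, and without control 1 its change was -0.31 in place of -0.45.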

How the results depend on the processing

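The count of all called features was 6041 and 4177 to 5966 when single arrays were left out, 541 on slide 1 alone and 1458 on slide 2 alone, where 4 arrays remain. Normexp background correction gave 2799 higher and 6010 lower calls against 3057 and 2984, with a median change of all features of -0.18 against -0.03, and the cause was not tested. Of the 9 tested genes 1 was called, with 2 under an intensity trend (Cd14, Trem2), 3 under normexp (Gpnmb, Cd14, Trem2), 0 on slide 1 alone and 0 to 2 when single arrays were left out. Beside that shift of all features the normexp change was 1.98 for Trem2, 1.12 for Gpnmb and -0.42 for Cd14. Cd68 had -0.14 on slide 2 alone. Csf1r had 0.25 on slide 1 alone, 0.02 without control 4 and 0.021 without furan 4, none of them called, within a range of -0.45 to 0.021 when single arrays were left out. Among the 6 pairs 4 passed with quantile normalization against 0, and the pair test was also run with normexp and the series table, where 0 passed; the other alternatives were not run for it. The difference between the classes was 1.94 to 2.93 when single arrays were left out and 1.72 to 3.23 under the other alternatives. Replicate numbers only number the samples: deviations of same-numbered arrays correlated at -0.30, 0.12, 0.28 and 0.04, and not every array correlated best with its own number. With the number as a replicate block 4559 features were called and Trem2 had an adjusted p of 0.040, so no call among the 9 genes changed. Signal over background limits Ccr2, and Trem2 rests on 1 spot per array.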
